A study of Mus musculus with 20 samples.

Results

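The NKG2, CD94 and NKR-P1 receptors are C-type lectin-like surface proteins best known from NK cells. The 8 genes described here were chosen by name among the 25246 genes in the files: Klrd1, Klrc1, Klrc2, Klre1, Klrk1, Klrb1c, Klrb1a and Klrb1f. They were followed in single thymic intraepithelial lymphocyte precursors (IELPs) of 3 mice, 1 per genotype. The first was a TBGR mouse of 4 wk, a reporter strain in which ZsGreen follows Tbx21, the gene of the transcription factor T-bet. The other two were 2 wk old, a TBGR C-mycfl/fl mouse and a TBGR C-mycD/DCd4 mouse, in which a Cd4-driven Cre deletes the floxed C-myc alleles. Thymocytes were depleted of CD4 and CD8 cells with beads, and TCRβ-positive cells were sorted singly by CD122, the β chain of the IL-15 receptor, and by ZsGreen. T-bet- cells without CD122 are written CD122-T-bet- and those with it CD122+T-bet-. CD122-positive cells with intermediate or high reporter are written T-bet int and T-bet high. All 4 populations were sorted from the TBGR and C-mycfl/fl mice, and only both T-bet- populations from the C-mycD/DCd4 mouse. The deposited design text calls the cells NK1.1+, whereas the study's methods call them NK1.1-. NK1.1 is the protein of Klrb1c. The study's own results describe the sorted cells as NK1.1- and state that NK1.1 served to exclude NKT cells. The study also reports a Klrb1c signature in the T-bet+ cells among them. The gate itself was not tested here. Because genotype, age, mouse and library go together, differences between the mice cannot be assigned to any one of them, and no test between populations or genotypes was possible with 1 mouse each.

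CD94, the product of Klrd1, forms heterodimers with NKG2A (Klrc1), which carries inhibitory motifs, or with NKG2C (Klrc2), which signals through an adaptor, and both dimers bind the non-classical MHC molecule Qa-1. NKG2D (Klrk1) is an activating homodimer that works with the adaptors DAP10 and DAP12 and recognises stress-induced MHC-like ligands, and KLRE1 (Klre1) pairs with KLRI1 or KLRI2. The NKR-P1 receptors (Klrb1a, Klrb1c and Klrb1f) form a related family, several of which bind Clec2 proteins. All of these genes lie in the NK gene complex, and T cells with innate-like features, including intestinal IELs, can express them.

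The 8 genes lie on chromosome 6 of mouse build GRCm38 (GENCODE M21 annotation), between positions 128609227 and 129678973, a span of 1.07 Mb with 28 protein-coding genes. The 3 NKR-P1 genes occupy the first 448 kb of it. The other 5, Klre1 and the CD94 and NKG2 genes, occupy 101 kb at its other end, in the order Klre1, Klrd1, Klrk1, Klrc2 and Klrc1. RefSeq promoter windows (GRCm38.p6, 250 bases before to 50 after the start) were found for 7 of the 8 genes and not for Klrd1, with 9 windows in all. The windows of Klrb1a and Klrb1c are shown because these paralogues moved in opposite directions from T-bet int to T-bet high, and those of Klrk1 and Klrc1 because both rose with Klrb1c. Each is printed 5′ to 3′ in the direction of the gene, and capitals mark matches to the RUNX letters TGTGGT or the ETS letters AGGAAG on either strand.
Klrb1a promoter, chr6:128622885-128623184, strand minus: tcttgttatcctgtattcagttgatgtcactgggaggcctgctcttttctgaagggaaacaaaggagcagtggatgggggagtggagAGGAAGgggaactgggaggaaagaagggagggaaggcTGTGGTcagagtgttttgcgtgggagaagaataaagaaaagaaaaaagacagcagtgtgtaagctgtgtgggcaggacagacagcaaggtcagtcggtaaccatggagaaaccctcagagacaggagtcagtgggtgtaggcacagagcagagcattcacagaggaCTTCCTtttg
Klrb1c promoter, chr6:128788592-128788891, strand minus: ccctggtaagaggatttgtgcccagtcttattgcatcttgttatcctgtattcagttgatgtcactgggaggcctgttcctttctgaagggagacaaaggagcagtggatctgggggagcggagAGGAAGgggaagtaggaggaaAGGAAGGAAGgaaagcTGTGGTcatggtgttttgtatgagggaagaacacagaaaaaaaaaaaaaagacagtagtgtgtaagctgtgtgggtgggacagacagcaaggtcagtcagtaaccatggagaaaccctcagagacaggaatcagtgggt
Klrk1 promoter, chr6:129623815-129624114, strand minus: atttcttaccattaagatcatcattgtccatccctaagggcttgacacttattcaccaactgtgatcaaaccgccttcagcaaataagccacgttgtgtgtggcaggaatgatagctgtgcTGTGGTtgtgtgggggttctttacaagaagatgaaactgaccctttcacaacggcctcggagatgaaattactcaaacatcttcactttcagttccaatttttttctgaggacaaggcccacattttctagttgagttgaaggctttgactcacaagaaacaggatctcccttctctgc
Klrc1 promoter, chr6:129678924-129679223, strand minus: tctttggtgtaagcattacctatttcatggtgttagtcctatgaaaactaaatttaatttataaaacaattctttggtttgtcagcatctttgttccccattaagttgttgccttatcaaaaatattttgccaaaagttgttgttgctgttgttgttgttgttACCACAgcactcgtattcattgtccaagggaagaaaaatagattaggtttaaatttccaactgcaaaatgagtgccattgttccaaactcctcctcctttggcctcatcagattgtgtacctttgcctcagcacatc

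The Klrb1a and Klrb1c windows were 69.7% identical over an alignment of 340 positions, while no other pair of windows compared was above 51.7%. TGTGGT stood in windows of 6 of the 7 genes, in 7 of the 9 windows, against 16.8% of all 32851 RefSeq windows of this length. AGGAAG stood in windows of 4 of the 7 genes (35.4% of all windows), and the T-box letters TCACAC only in both windows of Klre1 (14.5% of all windows). Both windows of Klrc2 overlap and hold the same TGTGGT matches, and both windows of Klre1 overlap and hold the same TCACAC match. The windows are thus not independent, and no enrichment is read from these counts. These are matches of letters, not sites shown to be bound.

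The 20 libraries of 96 cells each held 1413 cells with at least 2000 transcripts (TBGR 678, C-mycfl/fl 470, C-mycD/DCd4 265). Between 704825 and 1468961 transcripts were available per TBGR population. Libraries of 1 mouse are technical units. In the C-mycfl/fl mouse 4 libraries held both T-bet- populations and another 4 held the cells of both T-bet int and T-bet high. Each library used 1 of 2 sets of 96 barcodes, so libraries of the same set share all 96 by design and no barcode is shared between the sets. Library 2 of TBGR T-bet high stood apart, since 55 of its 96 cells passed and 4.17% of its transcripts lay in barcodes without a cell, against 0.215% to 0.725% in the other libraries. Myc transcripts did not separate the genotypes: the C-mycD/DCd4 libraries held 9.96 to 44.5 transcripts per 1000000 (CPM) in CD122+T-bet- cells and the C-mycfl/fl libraries 10.6 to 135.3. Whether the counted 3′ end lies in the deleted part of the gene was not tested. The αβ T cell genes Cd3e, Cd3d, Cd3g, Trbc1, Trac, Thy1 and Cd5 were detected in every population.

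Klrb1a, which encodes NKR-P1A, was the member called higher at the first TBGR step and lower at the last, by the rule given with the steps. In TBGR it had 0 transcripts in both CD122-T-bet- libraries. Its level was 130.3 and 112.4 CPM in CD122+T-bet-, 140.9 and 128.1 CPM in T-bet int, and 2.12 and 0 CPM in T-bet high. Because the count was 0 in CD122-T-bet- cells, the first rise is a lower bound: against a limit of 3 transcripts over that population, Klrb1a was at least 39.8-fold higher in CD122+T-bet- cells. It differed little between CD122+T-bet- and T-bet int cells (log2 ratio 0.14, exact 95% interval -0.17 to 0.45), where the libraries overlapped. From T-bet int to T-bet high it fell by 5.99 on the log2 scale (interval -11.88 to -4.07), with 1 transcript left in 147 cells. All intervals in this text cover counting error only.

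In the 2-week mice Klrb1a was lower than in TBGR in CD122+T-bet- cells (50.2 CPM summed in C-mycfl/fl and 33.5 in C-mycD/DCd4, against 121.9) and in T-bet int cells (67.01 against 134.6). It was higher than in TBGR in T-bet high cells (21.4 CPM in C-mycfl/fl against 1.42) and had 2 transcripts in CD122-T-bet- cells of either 2-week mouse against 0. In C-mycfl/fl cells the 4 libraries held 0 to 4.85 CPM in CD122-T-bet- cells and 21.2 to 90.2 CPM in CD122+T-bet- cells, without overlap. The T-bet int cells of this mouse had 44.3 to 124.4 CPM and the T-bet high cells 8.34 to 33.02 CPM. Klrb1a thus fell at the last step in both mice, by 1.61 on the log2 scale in C-mycfl/fl (interval -2.57 to -0.80), and it was lower in T-bet high than in T-bet int cells within each of the 4 libraries that held both. In the C-mycD/DCd4 mouse the libraries held 6.69 and 0 CPM in CD122-T-bet- cells and 28.6 and 37.3 CPM in CD122+T-bet- cells.

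Klrd1, the CD94 chain, rose from CD122+T-bet- to T-bet int cells. The TBGR libraries held 0 CPM in both CD122-T-bet- libraries, 2.58 and 1.44 CPM in CD122+T-bet-, 330.3 and 309.9 CPM in T-bet int, and 623.7 and 432.6 CPM in T-bet high. The rise into T-bet int was 7.07 on the log2 scale (interval 5.74 to 9.58, from 3 transcripts in CD122+T-bet- cells). The further rise into T-bet high was 0.81 (0.60 to 1.01), and with 0.94 relative to the median over genes it missed the call. In C-mycfl/fl cells the same gene was mostly a T-bet high gene: the libraries held 21.5, 50.2, 49.8 and 44.3 CPM in T-bet int, and 221.7, 456.1, 352.2 and 358.8 CPM in T-bet high, a log2 ratio of 3.05 (2.56 to 3.63). The T-bet int libraries of the 2-week mouse lay below both T-bet int libraries of the 4-week mouse.

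The NKG2 chains that pair with CD94 were nearly absent from the T-bet int cells in which Klrd1 was high. Klrc1, for the inhibitory chain NKG2A, had 4.55 and 0 CPM in the TBGR T-bet int libraries and 343.7 and 342.7 CPM in T-bet high, a log2 ratio of 6.99 (5.64 to 9.50). Klrc2, for the activating chain NKG2C, had 10.6 and 0 CPM in T-bet int and 299.1 and 329.8 CPM in T-bet high, a ratio of 5.74 (4.77 to 7.17). All 7 Klrc2 transcripts of T-bet int came from library 1, and without it (TBGR replicate 7) the ratio was 8.62. Klre1, which is not an NKG2 gene, moved likewise. It had 3.03 and 0 CPM in T-bet int and 180.3 and 192.8 CPM in T-bet high, a ratio of 6.58 (5.02 to 9.96). For each of these 3 genes, the 2 T-bet high libraries lay close together and far above both T-bet int libraries. No other population of any mouse reached these levels.

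In C-mycfl/fl T-bet high cells the same 3 genes stayed low. Klrc1 had 5.04, 15.0, 16.5 and 33.4 CPM in the 4 libraries and 0 in every T-bet int library, which makes it at least 4.46-fold higher, from 11 transcripts. Klrc2 had 8.34 to 44.02 CPM in T-bet high and 0 to 12.7 CPM in T-bet int, where the libraries overlapped. Klre1 had 0 to 41.7 CPM in T-bet high and 0 to 4.29 CPM in T-bet int, also with overlap. Klrd1, in contrast, had 345.9 CPM over the same T-bet high cells.

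Klrk1, which encodes NKG2D, rose with the NKG2 chains in TBGR. It had 2.07 and 2.01 CPM in CD122-T-bet-, 0 and 1.44 CPM in CD122+T-bet-, 3.03 and 12.7 CPM in T-bet int and 541.0 and 582.6 CPM in T-bet high, a last step of 6.10 on the log2 scale (5.27 to 7.24). In C-mycfl/fl T-bet high it lay between 58.4 and 260.6 CPM, above the 0 to 43.5 CPM of the T-bet int libraries. Of the 15 Klrk1 transcripts in those T-bet int cells, 13 came from library 2. Without that library (C-mycfl/fl replicate 6) the log2 ratio moved from 3.14 (2.40 to 4.07) to 4.74.

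Klrb1c, the NK1.1 gene, rose in steps. The TBGR libraries held no transcript in CD122-T-bet-, 10.3 and 11.5 CPM in CD122+T-bet-, 24.2 and 55.3 CPM in T-bet int, and 613.1 and 462.6 CPM in T-bet high, with no overlap between neighbouring populations. The first of these steps rested on 16 transcripts, and Klrb1c was at least 3.56-fold higher in CD122+T-bet- than in CD122-T-bet- cells. The next steps were 1.83 (1.02 to 2.77) and 3.82 (3.41 to 4.29) on the log2 scale. Without T-bet int library 1 or 2 (TBGR replicates 7 and 8) they were 2.32 and 3.33, or 1.15 and 4.50. In C-mycfl/fl the T-bet high libraries held 50.1 to 115.6 CPM and the T-bet int libraries 0 to 21.5 CPM, a ratio of 3.04 (2.04 to 4.39). Klrb1c and Klrb1a therefore moved in opposite directions at the last step in both mice, while their promoter windows had the highest identity among the pairs compared.

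Klrb1f, for NKR-P1F, was low in every population. Its TBGR libraries held 2.07 and 0, 11.6 and 2.88, 18.2 and 6.32, and 23.3 and 34.3 CPM in order from CD122-T-bet- to T-bet high. The last step, 1.12 on the log2 scale (0.09 to 2.18), met the call with 35 transcripts in both groups together, and without TBGR replicate 8 the call was lost. In C-mycfl/fl the T-bet high libraries (10.02 to 55.03 CPM) overlapped the T-bet int libraries (0 to 16.7 CPM).

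**Figure D1:**
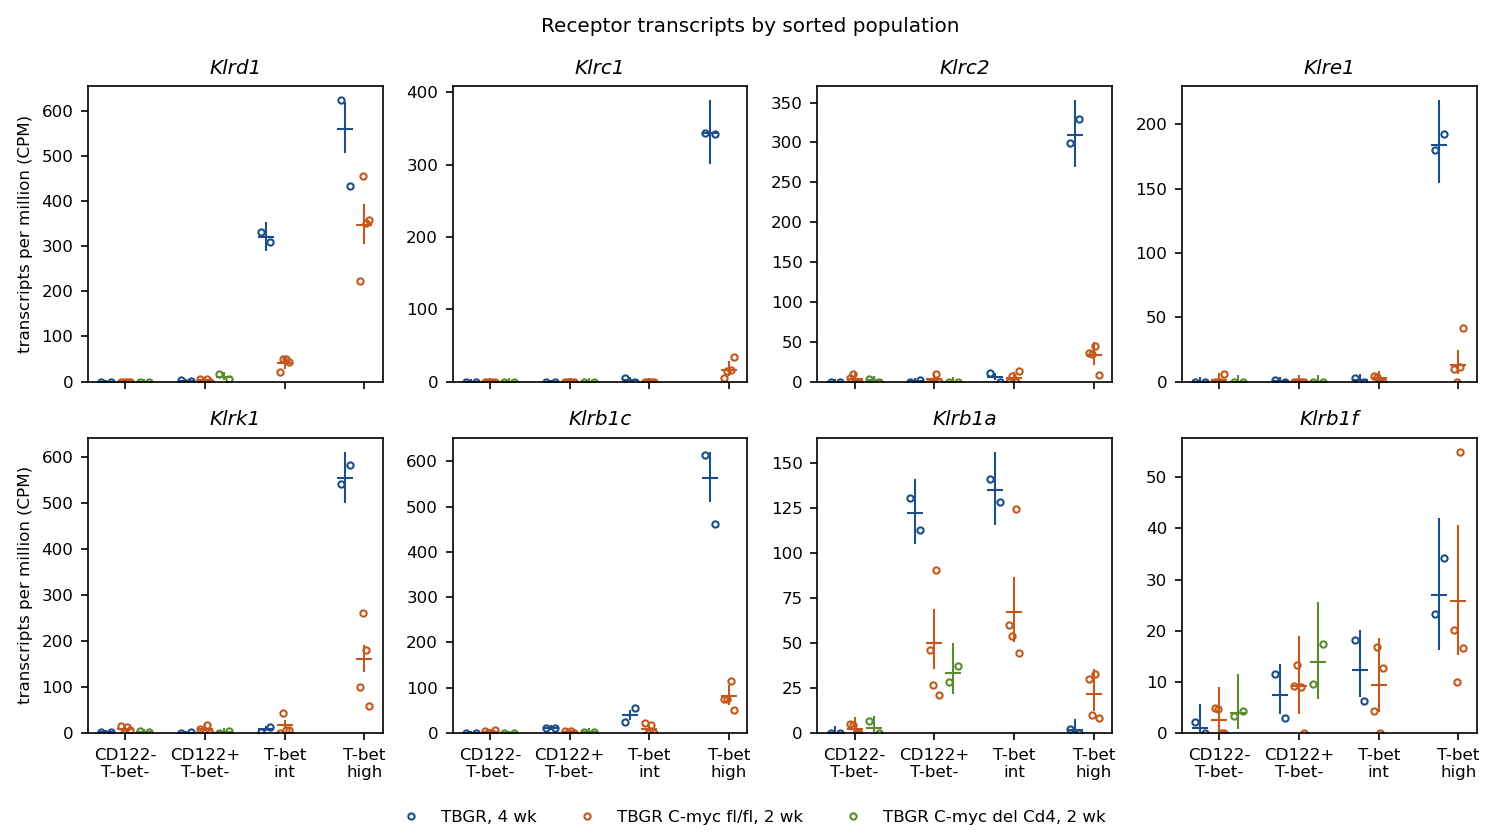
Level of each receptor gene (CPM, linear axis from 0, own scale per gene) in the sorted populations of the 3 mice. Open circles are libraries, dashes are sums over libraries with exact 95% Poisson intervals. Klrb1a peaks in CD122+T-bet- and T-bet int cells, Klrd1 is at 309.9 CPM or more in TBGR T-bet int, and the remaining genes other than Klrb1f are high only in T-bet high cells, above all in TBGR.

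To read these steps against all genes, a gene was called when its log2 ratio relative to the median gene was at least 1, its libraries did not overlap and both groups together held at least 20 transcripts. The median gene itself had a log2 ratio of 0.28, 0.05 and -0.13 at the 3 TBGR steps, 0.55 and -0.18 at the C-mycfl/fl steps, 0.05 in C-mycD/DCd4, and, between the genotypes, 0.45 in T-bet- cells without CD122 and 0.06 in those with it. At the first TBGR step only Klrb1a had 20 transcripts, and it was called higher (9.63% of 9262 genes were called higher and 6.31% lower). At the second step 4 of the 8 had 20 transcripts and Klrd1 and Klrb1c were called higher (3.23% of 9461 genes higher, 7.74% lower). At the third step all 8 had 20 transcripts, 6 were called higher and Klrb1a was called lower (10.2% of 8564 genes higher, 9.65% lower). Klrc1, Klre1, Klrk1, Klrc2, Klrb1c and Klrb1f were the 6. Without library 2 of TBGR T-bet high (replicate 6), Klrd1 was called as well, 8 in all, and the ratios of the 8 stayed within their intervals.

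**Figure D2:**
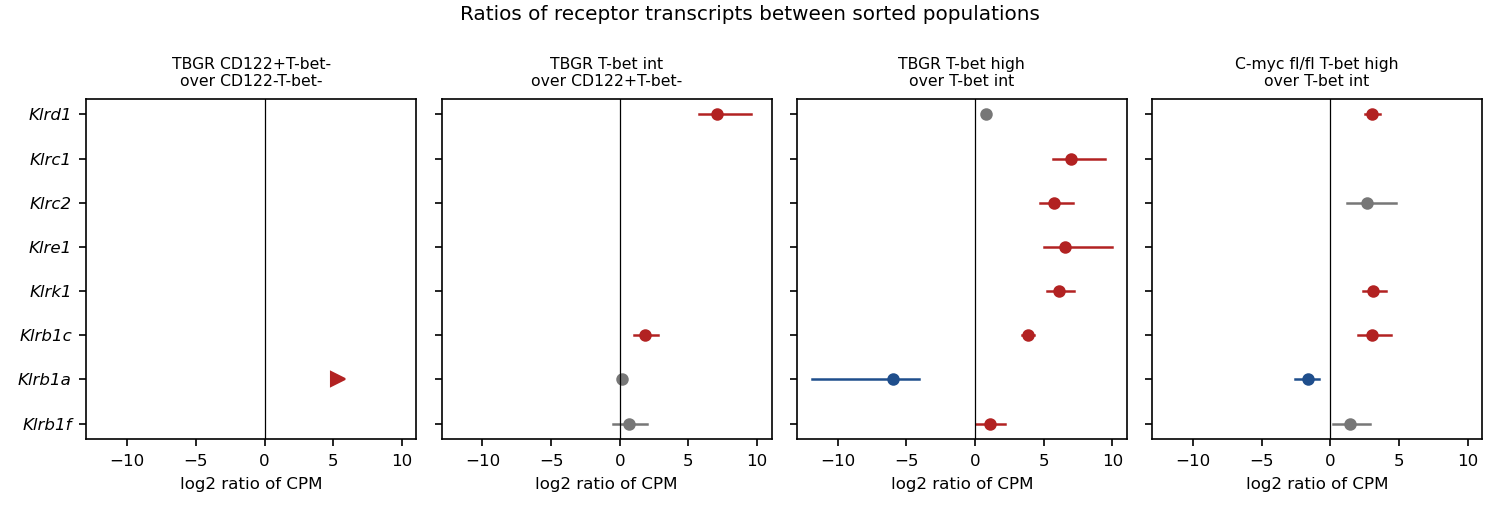
Log2 ratio of CPM at 3 TBGR steps and 1 C-mycfl/fl step for receptor genes with at least 20 transcripts. Points are ratios, lines exact 95% intervals, red and blue mark genes called higher and lower and grey those not called, and a triangle is the lower bound where the other group had 0 transcripts. Klrc1, Klre1, Klrk1 and Klrc2 lie between 5.74 and 6.99 at the TBGR step from T-bet int to T-bet high, where Klrb1a lies at -5.99.

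In the C-mycfl/fl mouse, Klrb1a was the single member with 20 transcripts at the step into CD122+T-bet- cells and was called higher (2.92% of 6790 genes higher, 1.08% lower). From T-bet int to T-bet high, 6 members had 20 transcripts. Klrk1, Klrd1 and Klrb1c were called higher and Klrb1a lower, 4 in all (1.64% of 6908 genes higher, 1.85% lower). In the C-mycD/DCd4 mouse, Klrb1a was called higher in CD122+T-bet- cells (12.7% of 7425 genes higher, 8.34% lower), and with either CD122+T-bet- library left out (replicates 1 and 2) it fell under 20 transcripts.

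C-mycD/DCd4 was also set beside C-mycfl/fl in both T-bet- populations. With 1 mouse per genotype, neither a difference nor its absence can be assigned to C-myc. In CD122-T-bet- cells no member reached 20 transcripts (4.79% of 6893 genes called higher, 1.62% lower). In CD122+T-bet- cells Klrb1a alone did, with 28.6 and 37.3 CPM in C-mycD/DCd4 and 21.2 to 90.2 CPM in C-mycfl/fl. The libraries overlapped, the log2 ratio was -0.57 (-1.38 to 0.19), and no member was called (12.3% of 7312 genes higher, 6.41% lower). Klrd1 had 7 transcripts in C-mycD/DCd4 and 2 in C-mycfl/fl CD122+T-bet- cells, too few for a call. T-bet int and high cells of C-mycD/DCd4 were not analysed here.

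Cells differ in depth, so detection was read after thinning every cell to 2000 transcripts. In TBGR CD122-T-bet- cells none of the 8 genes was detected in any of 174 thinned cells, which allows up to 1.72% of cells with a transcript at this depth (3 cells of 174) and does not limit the share of cells that express a gene. Without thinning, Klrk1 was found in 2 of these cells and Klrb1f in 1. Klrb1a was detected in 18.3% of 186 CD122+T-bet- cells (34 cells, exact binomial interval up to 24.6%) and in 24.6% of 171 T-bet int cells (18.3% to 31.7%). Klrd1 was detected in 37.4% of T-bet int cells (30.2% to 45.1%) and 56.5% of T-bet high cells (48.05% to 64.6%). In T-bet high cells Klrb1c reached 63.3%, Klrk1 55.1%, Klrc1 and Klrc2 44.9% each and Klre1 19.05%. Without thinning these shares were 84.4%, 74.1%, 59.2%, 61.9% and 38.8%, and Klrd1 reached 77.6%. Where Klrd1 was detected it averaged 4.27 unthinned transcripts per cell in T-bet int and 3.46 in T-bet high, at median depths of 6348 and 4309 transcripts per cell. In C-mycfl/fl it was detected in 6.03% of 116 T-bet int cells (2.46% to 12.04%) and 50.9% of 112 T-bet high cells (41.3% to 60.5%). Klrc1 was detected in 3.57% of these 112 cells, Klrc2 in 7.14%, Klrk1 in 24.1% and Klrb1c in 16.1%. Barcodes without a cell held 20 transcripts of the 8 genes, 0.583% of those in cells.

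Receptors per cell rose with T-bet. After thinning, no receptor gene was found in 78.5% of TBGR CD122+T-bet- cells, 46.2% of T-bet int cells and 7.48% of T-bet high cells. At least 3 were found in 0, 1.75% and 59.9% of these cells, and at least 5 in 13.6% of T-bet high cells. In C-mycfl/fl T-bet high cells 29.5% had none and 9.82% at least 3. Of the 64 T-bet int cells of TBGR with Klrd1, 3 also had Klrc1 or Klrc2 and 61 had neither. Of the 83 T-bet high cells with Klrd1, 64 had a partner chain and 19 had none. In C-mycfl/fl T-bet high cells, 8 of 57 cells with Klrd1 had a partner. A further 34 TBGR T-bet high cells had Klrc1 or Klrc2 without Klrd1, and at this depth an expressed gene can go undetected.

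**Figure D3:**
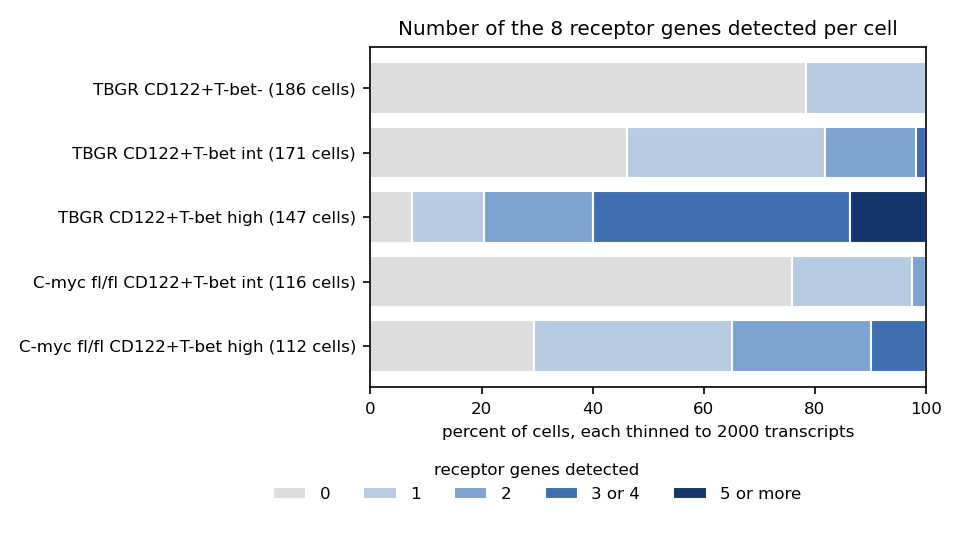
Percent of cells by the number of the 8 receptor genes detected, each cell thinned to 2000 transcripts, in 5 sorted populations (number of cells in brackets). The grey share, cells with none, falls from 78.5% in TBGR CD122+T-bet- to 7.48% in TBGR T-bet high.

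In TBGR T-bet int cells, detection of Klrb1a was compared between cells with and without Klrd1. Klrb1a was detected in 32.8% of cells with Klrd1 (21.6% to 45.7%) and in 19.6% of cells without it (12.6% to 28.4%). The 2 values were 24.2% and 20.4% in library 1 and 41.9% and 18.9% in library 2, so most of the difference came from library 2. The intervals overlapped. Without thinning, 51 of 97 cells with Klrd1 also had Klrb1a, against 49.1% of all 171 T-bet int cells. In the 4-week T-bet high cells all 15 pairs among Klrd1, Klrc1, Klrc2, Klre1, Klrk1 and Klrb1c were found together more often than the product of their shares, by 1.05 to 1.30 times, with a median of 1.13. These shares pooled both libraries, whose detection differed for Klrd1 (63.04% and 45.45%) and little for Klrk1 (55.43% and 54.55%). The part of pooling in the excess was not tested. Only some pairs were counted per library, and these lay above the product in each. In library 2, Klrd1 was found with Klrk1 in 14 cells (product 13.64) and with Klrc2 in 15 (product 11.36). For none of the 15 were the intervals of cells with and without the first gene apart. Klrc1, for instance, was detected in 51.8% of cells with Klrd1 (40.6% to 62.9%) and 35.9% of cells without it (24.3% to 48.9%). NKG2A and NKG2C chains were not exclusive: 34 cells had both Klrc1 and Klrc2, 32 had Klrc1 alone and 32 Klrc2 alone. The 3′ ends of these paralogues share sequence, to the extent given among the limits. Without thinning 14 of the 15 pairs were above the product, and 1 had intervals that were apart.

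**Figure D4:**
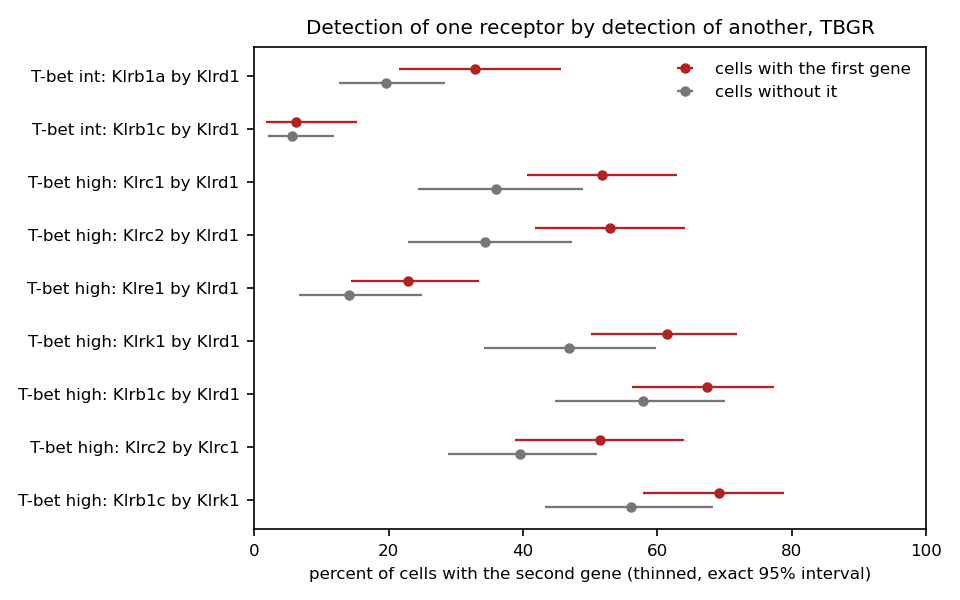
Percent of TBGR cells with a second receptor gene among cells with (red) and without (grey) a first one, thinned to 2000 transcripts, with exact 95% binomial intervals. Red lies to the right of grey in every pair shown, and the intervals of each pair overlap.

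An order of the 678 TBGR cells was then made from 1000 variable genes with every Klr gene left out (diffusion pseudotime, rooted in a CD122-T-bet- cell), and the receptors were placed on it. The root was the CD122-T-bet- cell farthest from the mean of the T-bet high cells, so the sort labels entered the order through it. By their medians the sorted populations followed one another, at positions of 17.7%, 43.1%, 62.9% and 86.5% of the order. Because of the root, this sequence is not independent of the sort. The populations also mixed at both ends. In the first of 10 bins of equal size 7 of 68 cells were T-bet high, and in the last 12 of 68 were CD122+T-bet-. The middle of the transcripts, the position by which 50% of a gene's summed CPM had been reached, lay at 57.01% for Klrb1a and 79.3% for Klrd1. It lay at 78.1% for Klrb1f, whose 47 transcripts were spread widely, with 10% reached at 9.81% of the order. It lay at 82.7% for Klre1, 84.9% for Klrk1, 86.6% for Klrc2, 87.1% for Klrb1c and 87.2% for Klrc1. Klrb1a passed 90% of its CPM at 74.8%, whereas Klrd1 had reached 10% at 53.02%. Klre1, Klrk1, Klrc2, Klrb1c and Klrc1 lay within 5 points of each other, and neither these nor Klrb1f and Klrd1 were put in an order among themselves. The place of Klrb1a before all the others rested on T-bet high library 1 (TBGR replicate 5). Without it, Klrb1a lay at 71.8%, Klrb1f at 57.8%, Klre1 at 48.4%, Klrk1 at 67.2%, Klrc1 at 69.4%, Klrc2 at 69.7%, Klrd1 at 72.95% and Klrb1c at 78.2%. Without TBGR replicate 4, Klrb1a lay at 45.8%, and with any other TBGR library left out no member moved by more than 10 points. In C-mycfl/fl cells the order did not follow the sort (median position 69.04% for T-bet int and 52.02% for T-bet high), and no receptor order was read from it.

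**Figure D5:**
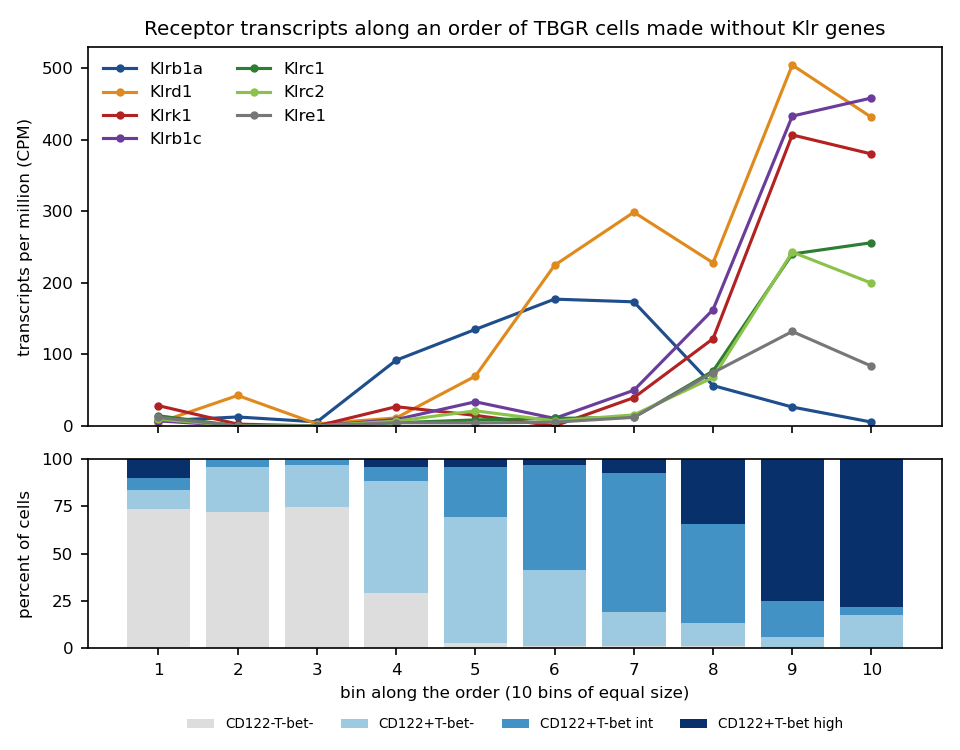
Top, CPM of 7 receptor genes (all but Klrb1f) in 10 bins of equal size along an order of TBGR cells made without Klr genes; bottom, percent of the cells of each bin by sorted population. Klrb1a is highest in bins 6 and 7 (177.1 and 173.3 CPM), Klrd1 passes 200 CPM in bin 6, and the other genes rise from bin 8 to bin 9.

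The genes whose levels were most like those of the members over the 28 combinations of library and sorted population were listed by Pearson correlation of log2(CPM + 10), as a description over units that share mice and libraries. For Klrd1 they were Klra7 (r = 0.97), Ccl5 (0.96) and Cxcr3 (0.96). Klrc1 and Klre1 had each other as the most alike gene (0.96), followed for both by Styk1 and Cdh1. For Klrc2 they were Klrc1, Cdh1 and Klrk1, for Klrk1 Cdh1, Fgl2 and Ifng, and for Klrb1c Samd3, Klra10 and Ifng. Klrb1a had Klhdc2 (0.88), Tnni1 (0.87) and Cldnd1 (0.86), and Klrb1f Chsy1 (0.79), Cd44 (0.79) and Sntb2 (0.79), all below the values of the other members.

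The adaptors through which these receptors signal were looked at next. Of 25 adaptor and signalling genes, 22 were tested at the first TBGR step, with 2 called higher and 3 lower (9.63% and 6.31% of all genes tested). At the second step 3 of 23 were called higher and 1 lower (3.23% and 7.74% of all genes), and at the third 3 of 23 higher and 1 lower (10.2% and 9.65% of all genes). Nothing particular to the list is read from these counts. The medians of the list relative to the median gene were -0.42, 0.02 and 0.33 on the log2 scale, and 0.19 at the last step of C-mycfl/fl, where 3 of 23 were called higher and 0 lower (1.64% and 1.85% of all genes). Hcst, for the NKG2D adaptor DAP10, rose by 1.35 on the log2 scale (0.87 to 1.87) from CD122+T-bet- to T-bet int and by 1.78 (1.45 to 2.12) from T-bet int to T-bet high. In C-mycfl/fl T-bet high cells Klrk1 was lower than in TBGR. Both Klrk1 and Hcst rose at the last step of C-mycfl/fl, Hcst by 1.73 (1.22 to 2.28). Tyrobp, for the adaptor DAP12, rose by 2.30 (0.84 to 4.45) into TBGR T-bet int from 4 to 19 transcripts. Fcer1g, an adaptor used by NK1.1, rose by 3.70 (2.65 to 5.28) at the first TBGR step and by 1.88 (1.59 to 2.18) at the second, before most Klrb1c transcripts appeared. In TBGR, Plcg2, a phospholipase of the receptor pathway, rose and fell where Klrb1a did. It rose by 3.66 (2.04 to 7.06) at the first step and at the third fell from 83 transcripts to 1. In C-mycfl/fl Plcg2 was called at neither step, whereas Klrb1a was called at both. In C-mycD/DCd4 both were called higher in CD122+T-bet- cells.

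A list of other genes of the NK gene complex also held receptors of the same fold and Cd93, which is not among the genes of the span described above. Its genes were mostly below 20 transcripts. Of 18 listed, 12 were in the files and 4 were tested at the last TBGR step. Klri2, for a partner of KLRE1, was called higher at that step, with 25 transcripts against 2, alongside Klre1 (10.2% of all genes higher, 9.65% lower). At each earlier TBGR step and at each C-mycfl/fl step 3 were tested and none was called. The shares of all genes called higher and lower were 9.63% and 6.31%, then 3.23% and 7.74% in TBGR. In C-mycfl/fl they were 2.92% and 1.08%, then 1.64% and 1.85%. With so few genes tested, nothing particular to the list is read from these counts. The list medians relative to the median gene were 0.54, -0.31 and 0.35 at the 3 TBGR steps. Among 15 ligand genes, 4 were tested at the last TBGR step and 3 were called higher and none lower (10.2% and 9.65% of all genes), with a list median of 1.01 relative to the median gene. Cdh1 (E-cadherin, the ligand of KLRG1) had 104 transcripts against 1, H2-T23, which encodes Qa-1, rose by 0.88 (0.64 to 1.12) and H2-T10 by 0.87 (0.43 to 1.32). Klrg1 itself had 1 transcript in TBGR T-bet high cells. Klrc3, a further NKG2 gene that shares sequence with Klrc1 and Klrc2, had 8 transcripts there and 0 in every other population.

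Of 20 transcription factor genes known for NK receptor genes, 4 of 15 tested were called higher and 4 lower at the first TBGR step (9.63% and 6.31% of all genes), 2 of 16 higher and 1 lower at the second (3.23% and 7.74%), and 5 of 15 higher and 5 lower at the third (10.2% and 9.65%). Relative to the median gene the medians of the list were -0.02, 0.00 and 0.15. Nfil3, Ikzf3, Ikzf2 and Id3 rose at the first step, by 1.91 to 2.30. At the second step Tbx21, the sorting gene itself, rose by 4.83 (3.23 to 8.22) and Id2 by 1.22 (1.02 to 1.43). At the third step Id3 fell by 5.21 (-6.98 to -4.11), Ikzf2, which encodes Helios, by 3.51 (-3.90 to -3.16), Tcf7 by 3.02 (-3.49 to -2.60) and Tox by 1.99 (-2.61 to -1.45). The 5 called higher at this step were Id2, Tbx21, Maf, Bcl11b and Gata3. At this TBGR step Klrb1a also fell and most receptor genes were called higher. A link between these factors and the receptor genes was not tested. In C-mycfl/fl 2 of 16 were called higher and 4 lower at the last step (1.64% and 1.85% of all genes), with a list median of -0.18. Id3 fell by 1.78 (-2.21 to -1.39) there, Tox by 1.64 (-2.29 to -1.07) and Tcf7 by 1.62 (-2.09 to -1.20), while Tbx21 rose by 1.65 (0.81 to 2.60). Ikzf2 was not called at that step, at which Klrb1a was called lower. T-bet high cells of this mouse held 60.03 CPM of Tbx21, and those of TBGR 164.6 CPM.

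In CD122+T-bet- cells of C-mycD/DCd4 relative to C-mycfl/fl, where no receptor gene was called, 4 of 22 adaptor genes and 7 of 15 transcription factor genes were called higher, with 0 and 1 lower (12.3% and 6.41% of all genes were called higher and lower). There, 2 of 3 genes of the NK complex list (Clec2g and Cd69) and 2 of 3 ligand genes (H2-T10 and H2-T23) were called higher. In the order of naming, the list medians relative to the median gene were 0.61, 1.08, 1.85 and 1.46. In CD122-T-bet- cells 1 of 20 adaptor, 2 of 13 transcription factor, 2 of 3 NK complex list and 1 of 2 ligand genes were called higher, and none lower (4.79% and 1.62% of all genes).

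Markers of other cells are given beside the receptors, summed per library without the 8 members. Of 10 NK cell markers 8 were measured, of which Fcer1g and Tyrobp are also among the adaptors. In TBGR their sum ran from 39.3 to 322.2 CPM over the CD122-T-bet- libraries, from 90.8 to 108.4 CPM over those of CD122+T-bet-, and was 353.0 to 357.3 in T-bet int and 372.7 to 587.6 in T-bet high, where 6 of the 8 were above 0. Ncr1, which defines NK cells, had 0 transcripts in every population but C-mycfl/fl T-bet high, where it had 3, and Eomes was at 0 in TBGR T-bet high. In C-mycfl/fl the NK sum was 202.5 to 447.9 CPM in T-bet int and 644.9 to 1659 CPM in T-bet high, above the TBGR T-bet high libraries, whereas Klrd1, Klrc1, Klrc2, Klre1, Klrk1 and Klrb1c had lower summed levels in C-mycfl/fl T-bet high than in TBGR T-bet high. NKT markers (9 measured) summed to 634.9 to 907.6 CPM in TBGR T-bet int and 638.2 to 776.5 in T-bet high. γδ T cell markers (7 measured) summed to 939.4 to 1346 and 1084 to 1805 CPM in the same populations, with Trdc at 0 in T-bet high. Markers of CD4 and CD8 double positive thymocytes summed to 710.8 to 822.7 CPM in TBGR CD122-T-bet- and to 104.0 to 329.8 CPM in the other TBGR populations. B cell markers reached 313.6 CPM and myeloid markers 852.0 CPM at most in any library of any mouse, and Lyz2 was at 0 throughout. The myeloid list also holds Fcer1g and Tyrobp. Both were called higher in C-mycfl/fl T-bet high, the population with the 852.0 CPM library, where Csf1r and Cd74 were at 0. The part of other cells in the receptor levels was not tested.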

How the data were processed

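Single cells were sequenced by CEL-Seq2 on plates, with 6-base UMIs. The authors demultiplexed reads with bcl2fastq 2.17.1.14 and aligned them with BWA 0.6.2-r126 to GENCODE M9 gene models (versions from the submitters' processing notes), discarded reads with several loci and merged loci that overlap by over 75%. They deposited estimated counts of transcripts per gene and barcode, corrected for UMI collisions, so values are not whole (each converts back to whole UMIs within 1e-09). Here they were rounded to whole transcripts and summed over cells with at least 2000 transcripts, without mt- and ERCC- genes. Levels are CPM, not scaled by length since each transcript is counted at its 3′ end. Log2 ratios add 0.5 transcripts, and intervals are exact. The median ratio used genes with at least 100 transcripts. No p-values were computed.

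The members and lists were chosen with earlier results of these data known. The text names all 8 members, the 3 most alike genes of each and, from each list, the counts called and at most 4 called genes with the largest ratio per comparison. At the third TBGR step it also names the 5 transcription factors called higher. Analyses used Python with scanpy 1.11.5 and scipy 1.17.1, the comparison was tested on simulated data, and cell orders left out genes correlated above 0.4 with Pcna or Mki67. Alternatives were a minimum of 3000 transcripts, thinning with a seeded draw, other thresholds and each library left out. Gene positions are from GENCODE M21 (GRCm38). Replicate numbers name libraries of 1 mouse and link no libraries between mice; in C-mycfl/fl, 1 library holds both populations compared.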

Additional observations from a re-analysis of the deposited data

How the results depend on the processing

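Of the 22 log2 ratios of receptor genes with at least 20 transcripts, 1 changed direction under the alternatives run: Klrb1f from CD122+T-bet- to T-bet int in TBGR (0.71, not called) was -0.14 without TBGR replicate 7. Raising the minimum to 3000 transcripts per cell, adding 1 transcript, not rounding or taking the ratio relative to the median gene left all 22 within their intervals; thinning moved 3 and equal weight per cell 2. Into TBGR T-bet int, Klrd1 was 5.72 and Klrb1c 3.01 after thinning, and Klrb1a 0.52 with equal weight per cell. Into TBGR T-bet high, Klrd1 was 0.59 with equal weight per cell and 0.44 without TBGR replicate 5. The cause was not tested.

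Counts of receptor genes called at the 3 TBGR steps (1, 2 and 7) ranged from 1 to 1, 2 to 3 and 6 to 8 with one library left out. In C-mycfl/fl (1 and 4) they ranged from 1 to 1 and 4 to 5, and in C-mycD/DCd4 (1) from 0 to 1, with 0 without replicate 1 or 2. Between genotypes none was called in any. A log2 ratio of at least 2 left 1 at the second TBGR step. Requiring 100 transcripts left 1 there, 0 at the first C-mycfl/fl step, 2 at its last and 0 in C-mycD/DCd4. Thinning left 0 at the first C-mycfl/fl step and 0 in C-mycD/DCd4.

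Genes called at the 3 TBGR steps were 1476, 1038 and 1700. After thinning they were 772, 650 and 887, at a log2 ratio of at least 2 they were 352, 157 and 453, and at 100 transcripts 392, 231 and 523. One library left out gave 1323 to 1822, 978 to 1264 and 1437 to 2039. The C-mycfl/fl steps (271 and 241) gave 91 and 129 after thinning, 91 and 58 at a log2 ratio of 2, 68 and 62 at 100 transcripts, and 321 to 544 and 323 to 406 with one library left out (544 without replicate 4, 406 and 399 without replicates 7 and 8). C-mycD/DCd4 (1565) gave 724, 444 and 407, and 1346 to 1717. Between genotypes the counts were 442 in CD122-T-bet- (54 at a log2 ratio of 2, 76 at 100 transcripts, 477 to 670 with one library left out) and 1370 in CD122+T-bet- (801 after thinning, 292, 427, and 1317 to 1731). Thinning and the minimum of 100 transcripts leave fewer genes to test by construction, and a log2 ratio of 2 admits fewer calls. With one library left out, fewer libraries have to be apart, which admits more calls, while fewer genes reach the minimum of transcripts. The same rule is stricter in C-mycfl/fl, which has more libraries per population than TBGR.

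No paired analysis was possible because the results come from no test. Within the 4 C-mycfl/fl libraries that held cells of both T-bet int and T-bet high, Klrd1, Klrc1, Klrk1 and Klrb1c were higher in T-bet high in 4 of 4 and Klrb1a lower in 4 of 4, while Klrc2, Klre1 and Klrb1f were higher in 3 and lower in 1. In the last 500 bases of their annotated transcripts, 43.5% of the 50-base words of Klrc1 and 15.2% of those of Klrc2 occur in another gene, mostly each other, 17.8% of those of Klrb1c and 9.84% of those of Klrb1a do, and none of Klrd1, Klre1, Klrk1 and Klrb1f. Their counts are uncertain to that extent. Looking for a library far from the others in the 7 groups of 4 libraries with at least 20 transcripts found 0. Most members had under 20 transcripts in the T-bet- populations, which in TBGR and C-mycfl/fl held more transcripts in all than T-bet high of the same mouse.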
